A study of Mus musculus with 12 samples.

Results

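Gene expression differed far more between the replicate libraries headed LPS- than between those headed LPS+. The study sequenced RNA from bone marrow-derived macrophages (BMDMs), and the spread between replicates was taken from all 12 of its 12 libraries. Over 11787 of 43131 genes, the typical standard deviation (SD) between replicates was about 3 times as large under the LPS- headings. Genes of collagen and extracellular matrix, mitosis, MHC class II and the complement component C1q, picked for its large SDs, varied strongly. Those of the respiratory chain, the spliceosome and the TLR4 pathway varied less than the typical gene. Under LPS+ headings the SDs were small for most functions. C1q, MHC class II, collagens and matrix and, in the tlr4f/f-lysM-cre group, mitosis were among the larger ones.

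The BMDMs came from C57BL/6 tlr4f/f-lysM-cre mice and their tlr4f/f controls, and M-CSF at 50 ng/mL was given for 7 days. Each genotype was left without LPS or exposed for 6 h to 1 µg/mL LPS, with 3 libraries in each of the 4 groups. Mice of both genotypes carry the floxed tlr4 allele. The Cre of the lysM-cre allele is made from the lysM locus (Lyz2), which is active in macrophages, monocytes and neutrophils. Nothing in the sources used here says whether the 3 libraries of a group came from separate mice or cultures. Their spread may therefore be technical. The p-values below compare the SDs of the 4 groups, with the group as the unit, and do not extend to other mice or cultures. They take the groups of a heading as independent, although deviations of same-numbered libraries correlated within a heading.

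M-CSF drives marrow progenitors to divide and to mature into adherent macrophages. Stromal cells, neutrophils and their precursors are present in the marrow at the start of such a culture and are usually lost as it goes on. TLR4 is the receptor for LPS and acts through MyD88 and TRIF, which switch on NF-kB target genes and, through interferon-beta, the interferon-stimulated genes. Macrophages also take up dead cells and debris, present peptides on MHC class II and make the C1q chains of complement.

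The unit was 1 gene in 1 group. For each gene, the deposited transcript with the highest count was taken, and the SD of its log2 CPM, the counts scaled to the library total, was computed over the 3 libraries of a group. A gene was measured when its mean was at least 20 counts in each of the 4 groups. The 11787 genes that met this held between 99.1% and 99.7% of the counts of a library, and the libraries held between 33577087 and 56445268 counts. Another 2727 genes reached the minimum in at least 1 group but not in all 4. Genes below this minimum in any group are therefore missing from the SDs below. Genes that respond to LPS are kept where they reach it in every group.

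The column headings did not match the counts of the targeted gene, so the groups are named as headed. Tlr4, the deleted gene, had 4486, 9136 and 6449 counts under the heading LPS- tlr4f/f and 4367, 3041 and 3739 under LPS- tlr4f/f-lysM-cre. It had 1484, 1086 and 1412 counts under LPS+ tlr4f/f, and 1191, 891 and 1117 under LPS+ tlr4f/f-lysM-cre. All 6 libraries headed LPS- were above all 6 headed LPS+. Lyz2, which encodes lysozyme and is the locus that carries Cre, had between 221787 and 1244818 counts in the libraries headed LPS- and between 494 and 3272 in those headed LPS+. Il1b, an inflammatory cytokine gene, had 405, 256 and 4 counts under LPS- tlr4f/f and 128, 140 and 195 under LPS+ tlr4f/f. Under LPS- tlr4f/f-lysM-cre it had 306385, 52432 and 90388, and under LPS+ tlr4f/f-lysM-cre 113136, 97411 and 112463. It was thus high under both tlr4f/f-lysM-cre headings and low under both tlr4f/f headings, whatever the LPS heading. The heading LPS- tlr4f/f-lysM-cre may have been exchanged with LPS+ tlr4f/f. In that case both groups with the large spread were tlr4f/f and both with the small spread were tlr4f/f-lysM-cre, 1 of each without LPS and 1 with it.

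A set of genes also separated the libraries in a way that no label names. In replicates 1 and 2 of both LPS- groups, 19 genes had at most 1 count, while they had at least 10 counts in each of the other 8 libraries. No gene showed the reverse. Most encode proteins of heart and striated muscle or globins, which macrophages do not make. Myh6, a myosin heavy chain of heart muscle, had 0, 0 and 291 counts under LPS- tlr4f/f, 0, 1 and 2023 under LPS- tlr4f/f-lysM-cre, and between 1175 and 2104 in those headed LPS+. Summed over the 19 genes, the 4 libraries had between 0.0268 and 0.0938 CPM. Replicate 3 headed LPS- tlr4f/f had 22.3 CPM, replicate 3 headed LPS- tlr4f/f-lysM-cre had 182 CPM, and the libraries headed LPS+ had between 96.2 and 136 CPM. Xist, the RNA of the inactive X chromosome, had between 20 and 29 counts in the same 4 libraries and between 0 and 4 in the other 8. Replicate 3 of each LPS- group thus stood apart from replicates 1 and 2. The ratios of LPS- to LPS+ SDs are given without these 2 libraries for all genes and for the lists described below whose ratio moved by over 1.5 times. The part of this split in the spread was not tested.

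The median SD of log2 CPM was 0.248 under LPS- tlr4f/f and 0.295 under LPS- tlr4f/f-lysM-cre. The LPS+ groups had 0.0884 (tlr4f/f) and 0.0917 (tlr4f/f-lysM-cre). On the linear scale, the typical gene thus varied by 18.8% and 22.7% between LPS- replicates, and by 6.32% and 6.56% between LPS+ replicates. The means of the medians were 0.272 and 0.0901, a ratio of 3.02. The ratio was 2.81 between the tlr4f/f headings and 3.22 between the tlr4f/f-lysM-cre headings. With 2 groups against 2, the exact permutation test (two-sided) gave p = 0.333, the smallest value that this design allows.

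**Figure D1:**
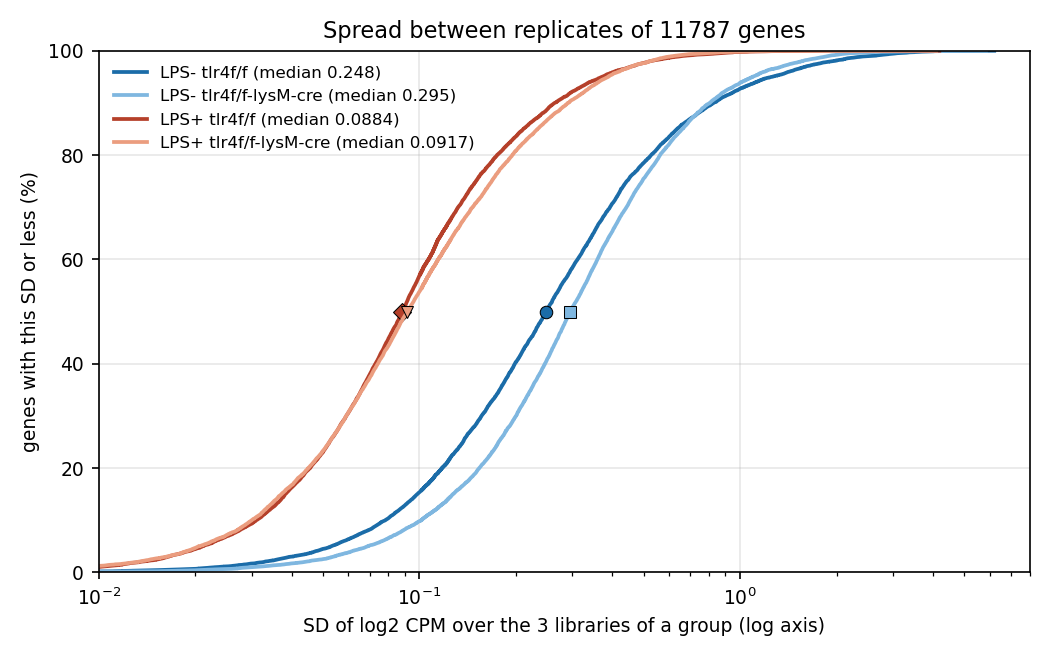
Distribution over 11787 genes of the SD of log2 CPM between the 3 libraries of a group (x axis, log scale), with 1 line for each of the 4 groups. The 2 lines of the groups headed LPS- lie to the right, at medians of 0.248 and 0.295, and the 2 of the groups headed LPS+ nearly coincide, at 0.0884 and 0.0917.

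The difference was larger still in the tail. An SD above 1, which corresponds to a typical doubling or halving between libraries, was found in 856 and 730 genes of the LPS- groups and in 28 and 21 genes of the LPS+ groups. The top 10% of genes by SD began at 0.827 and 0.805 in the LPS- groups and at 0.264 and 0.291 in the LPS+ groups. Both SDs under LPS- headings were above both under LPS+ headings in 8149 genes, 69.1% of those measured, and the reverse held for 160 genes, 1.36%. Without replicate 3 of either LPS- group, the ratio of the median SDs was 2.48, and the first count was 5867 of 11715 genes.

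Counting error was much smaller than the spread under LPS- headings. The SD that counting alone gives had a median between 0.0377 and 0.0512 in the 4 groups. The variance between replicates was 36.5 and 27.9 times the counting variance in the LPS- groups, and 4.04 and 3.82 times in the LPS+ groups. In the LPS+ groups, 17.6% and 17.7% of genes varied by no more than counting, against 3.25% and 4.53% in the LPS- groups. The ratio of the SDs grew with abundance. It was 1.81 over the 906 genes with a mean of 20 to 100 counts, 2.54 over the 4429 with 100 to 1000 counts, 3.32 over the 5610 with 1000 to 10000 counts, and 4.21 over the 842 with more. By this ratio, the best counted genes therefore differed most between the headings. The SDs themselves had medians of 0.50 and 0.55 against 0.27 and 0.30 at 20 to 100 counts. Above 10000 counts they were 0.27 and 0.29 against 0.07 and 0.06.

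Each pair of replicates showed the same order. The median absolute difference between 2 libraries was 0.203, 0.347 and 0.319 in log2 CPM for the pairs headed LPS- tlr4f/f (replicates 1 and 2, 1 and 3, 2 and 3). It was 0.310, 0.346 and 0.371 for the LPS- tlr4f/f-lysM-cre pairs. In the LPS+ groups it was between 0.0916 and 0.114. The closest LPS- pair, replicates 1 and 2 headed LPS- tlr4f/f, was thus farther apart than every LPS+ pair. That pair had 863 genes that differed by more than 1 in log2 CPM, the other LPS- pairs had between 1426 and 1716, and the LPS+ pairs had between 73 and 157. Pearson's r of log2 CPM across genes, which are not independent replicates, was between 0.902 and 0.960 for LPS- pairs and between 0.992 and 0.995 for LPS+ pairs.

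**Figure D2:**
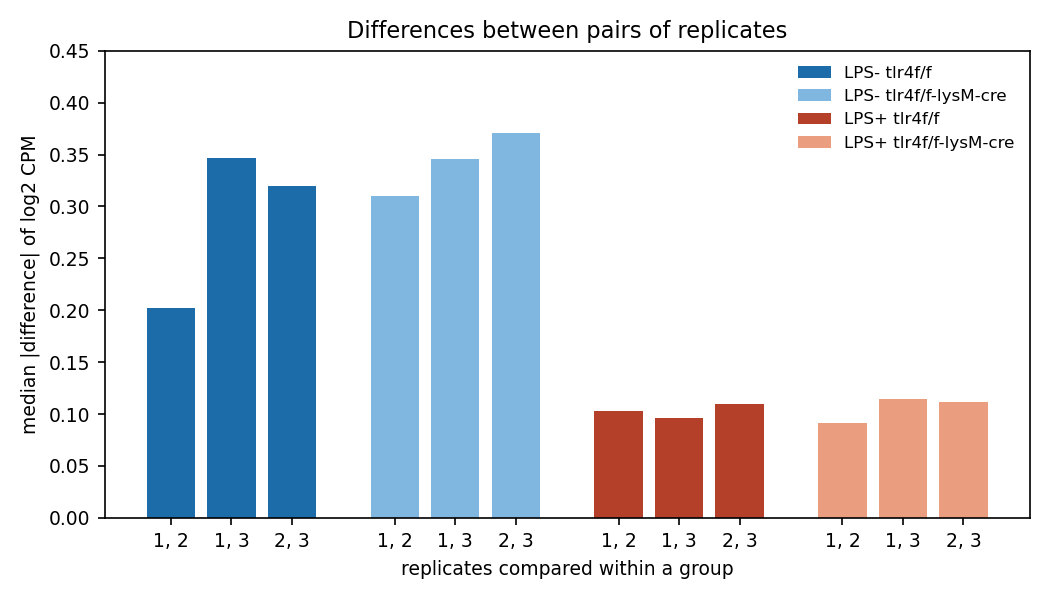
Median absolute difference in log2 CPM over 11787 genes for each pair of replicates (y axis, from 0), 3 pairs in each of the 4 groups. The 6 pairs headed LPS- sit between 0.203 and 0.371, above the 6 headed LPS+, which sit between 0.0916 and 0.114.

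In the group headed LPS- tlr4f/f, 1 library carried much of the spread. Replicate 3 was the farthest from the other replicates for 50.5% of the genes, and for 58.9% of the top 10% by SD. In 41.3% of that top 10% it was the farthest and the lowest. Without it, the ratio of the median SDs over all groups was 2.62, the lowest value with any 1 library left out, and the highest was 3.32.

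The test for single genes compared the 2 SDs under LPS- headings with the 2 under LPS+ headings (limma on the log2 SD, Benjamini-Hochberg adjusted p below 0.05). The SD was larger under LPS- headings in 2220 genes (18.8%) and larger under LPS+ headings in 4 genes (0.0339%). The first count rested on single libraries far more than the ratio of medians did. Among the groups headed LPS-, it was 7 without replicate 1 and 540 without replicate 3 headed tlr4f/f, and 982 without replicate 1 and 1409 without replicate 2 headed tlr4f/f-lysM-cre. Among the groups headed LPS+, it was 240, 426 and 619 without replicates 1, 2 and 3 headed tlr4f/f, and 159, 382 and 0 without replicates 1, 2 and 3 headed tlr4f/f-lysM-cre. The counts of passing genes in the lists below come from the same test and share this limit, and it is the level of the SDs that the description leans on. Without replicate 3 of either LPS- group the count was 746.

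Against the shift that all genes shared, few genes stood out. When the log2 SDs were centred on the median of all genes in each group, no gene (limma, adjusted p) had a larger SD under LPS- headings than the median gene did, and 1 gene had a smaller one (0.00848% in either direction). In the same test, 1048 genes had an unadjusted p below 0.05. The lists below are thus described by their level and not as departing from the rest.

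With the heading LPS- tlr4f/f-lysM-cre exchanged for LPS+ tlr4f/f, the difference by LPS was gone. The ratio of the median SDs was 0.871, no gene passed limma's test in either direction, and 48 genes had an unadjusted p below 0.05. The spread then followed the genotype. Under that reading the large SDs belonged to tlr4f/f without and with LPS, and whether LPS or genotype went with the spread cannot be told apart from the headings.

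Functions were compared by 26 lists of genes with measured members, beside lists of cell markers. All 26 had a larger median SD under LPS- headings, as the mean of the 2 groups, and with the headings exchanged this held for 12 of 26. Among the lists of functions, the median SD under LPS- headings ran from 0.122 for nuclear genes of the respiratory chain to 2.71 for collagens and matrix, both in the group headed LPS- tlr4f/f. In that group, all genes together had a median of 0.248.

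**Figure D3:**
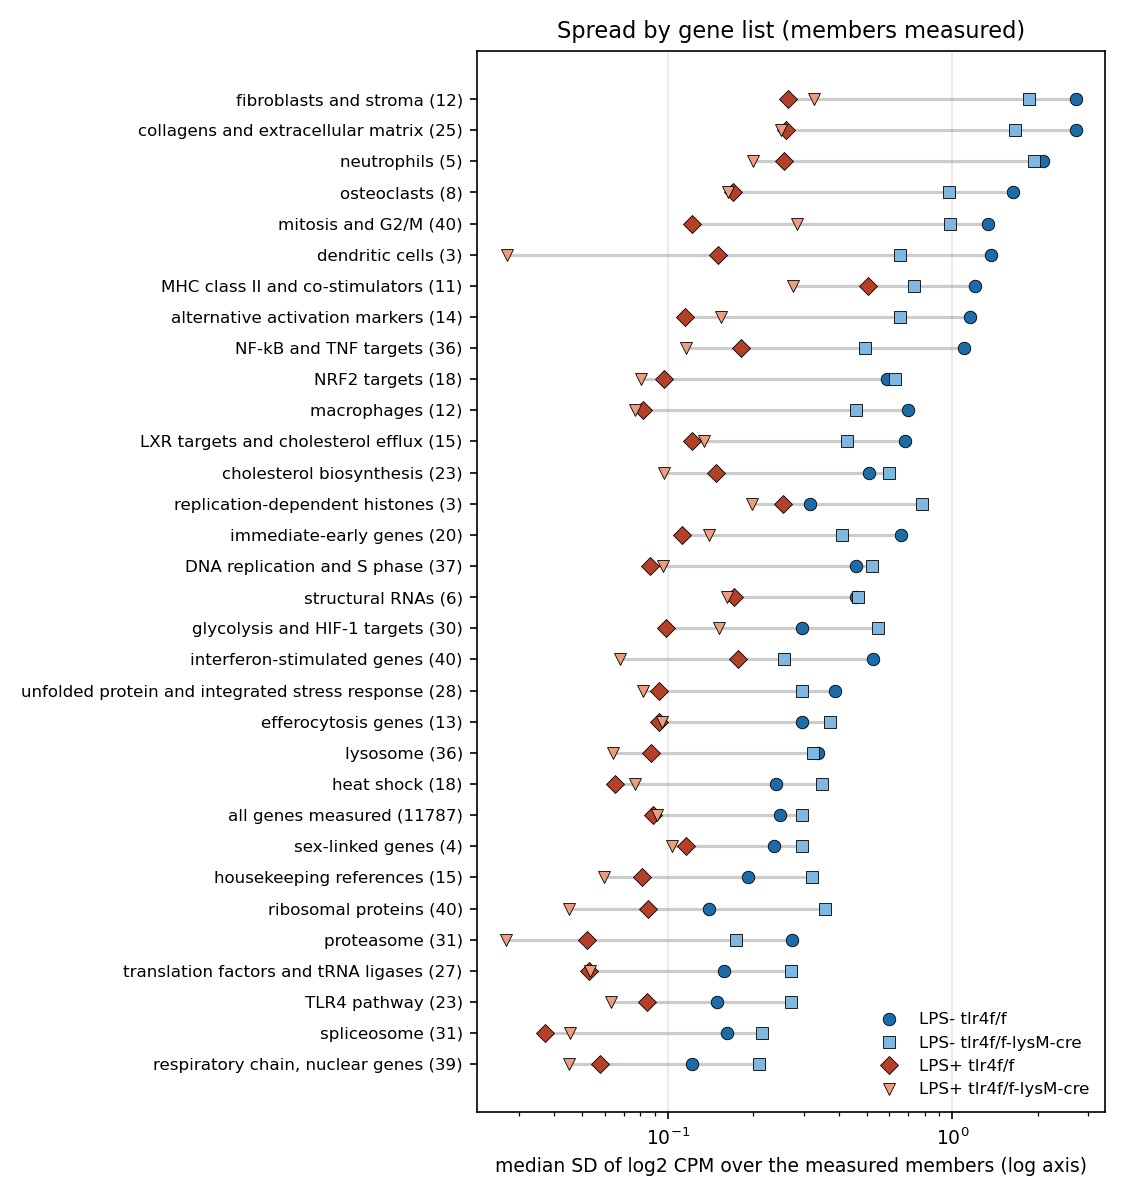
Median SD of log2 CPM over the measured members of each gene list (x axis, log scale), with 1 point for each of the 4 groups. For every list the points of the groups headed LPS- lie to the right on average, from near 0.12 for the respiratory chain to 2.71 for collagens, and the lists of mitosis, NF-kB targets and alternative activation lie above the value of all genes.

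Collagen and matrix genes varied most of the functions. Of the 25 measured, 24 were in the top 10% by SD in the group headed LPS- tlr4f/f and 19 in that headed LPS- tlr4f/f-lysM-cre, where 10% of all genes fall by definition. In the LPS+ groups, 12 (tlr4f/f) and 9 (tlr4f/f-lysM-cre) of these genes were in the top 10%, so they also ranked high there. Their median SD was 2.71 and 1.66, against 0.26 and 0.25 in the LPS+ groups. In limma's test 20 of 25 (80%, against 18.8% of all genes) had a larger SD under LPS- headings, and 0 the reverse. Col1a1, a chain of type I collagen, had 20118, 1829 and 123 counts under LPS- tlr4f/f and 17365, 1909 and 19559 under LPS- tlr4f/f-lysM-cre. It had 405, 282 and 345 counts, and 598, 383 and 395, in the 2 LPS+ groups. High libraries were replicate 1 of the first group and replicates 1 and 3 of the second, while replicate 3 of the first lay below every LPS+ library. Its SDs were 3.60 and 1.83 against 0.26 and 0.33 (limma, adjusted p = 0.0142).

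Col6a1 and Fn1 had the same order of LPS- libraries, and Mmp9 differed in replicate 3 under LPS- tlr4f/f-lysM-cre. Col6a1, a chain of type VI collagen and the member with the largest mean SD under LPS- headings, had 3343, 509 and 11 counts, then 2970, 565 and 5527, then 105, 71 and 95, and then 128, 139 and 176 (limma, adjusted p = 0.0135). Fn1, which encodes fibronectin, had 13719, 2659 and 122 counts under LPS- tlr4f/f and 11994, 2638 and 18448 under LPS- tlr4f/f-lysM-cre, against 2935 to 4251 in the LPS+ libraries. The inhibitor of metalloproteinases Timp2 varied least in the list, with SDs of 0.63, 0.77, 0.15 and 0.09. Mmp9, a gelatinase that degrades matrix and is also on the lists of neutrophil and osteoclast markers, had an SD among the 4 largest in the group headed LPS- tlr4f/f, with 11619, 1067 and 7 counts. Under LPS- tlr4f/f-lysM-cre it had 24414, 1280 and 6387 counts, and under LPS+ it had between 1610 and 2681 in the tlr4f/f group and between 13462 and 15843 in the tlr4f/f-lysM-cre group (SDs of 5.15, 2.02, 0.15 and 0.05, limma, adjusted p = 0.00696).

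Markers of fibroblasts and stroma had a similar order of LPS- libraries when summed. Some of them, such as Col1a1, are also in the matrix list, so this is partly built in, and no sum without them was made. Summed over the 16 markers, they had 906, 85.4 and 15.8 CPM under LPS- tlr4f/f and 1370, 235 and 2020 CPM under LPS- tlr4f/f-lysM-cre. They had between 31.3 and 40.9 CPM under LPS+ tlr4f/f, and between 62.5 and 80.4 under LPS+ tlr4f/f-lysM-cre. The range within a group was thus 57.3-fold and 8.6-fold under LPS- headings, and 1.3-fold in each LPS+ group. Thy1, a surface marker of fibroblasts, had at most 7 counts in every library. Pdgfrb, the PDGF receptor of stromal cells, had 697, 96 and 22 counts under LPS- tlr4f/f, but 2228, 1657 and 1536 under LPS- tlr4f/f-lysM-cre, and so did not share the spread of the collagens there. Under that heading, Acta2 had 2181, 98 and 424 counts and Tagln 880, 88 and 185, with replicate 1 and not replicate 3 the highest. Of the 12 measured markers, 9 were above and 3 below their group mean in replicate 3 there. In bulk RNA, fewer cells of a type and less RNA per cell cannot be told apart, and the part of other cells in the spread of the matrix genes was not tested.

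Genes of mitosis were the next most variable large list. Of 40 measured, 36 and 29 were in the top 10% of SD of the LPS- groups. In limma's test 30 (75%, against 18.8% of all genes) had a larger SD under LPS- headings. The median SD of the list was 1.33 and 0.98, against 0.12 and 0.29 in the LPS+ groups, where 2 and 18 genes were in the top 10%. Here replicate 3 was low in both LPS- groups. The mean deviation of the list from its group mean was 0.53, 0.99 and -1.53 in log2 CPM under LPS- tlr4f/f and 0.69, 0.43 and -1.12 under LPS- tlr4f/f-lysM-cre. In 32 of the 40 genes, replicate 3 was the farthest and the lower library in both groups. Without replicate 3 of either group, the median SDs were 0.40 and 0.32 and the ratio to the LPS+ groups was 1.77, against 5.67 with all libraries and below that of all genes.

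Ube2c, a ubiquitin-conjugating enzyme of the anaphase-promoting complex, had the largest mean SD of the list under LPS- headings. It had 1254, 2005 and 39 counts, then 461, 304 and 46, against 2928, 2431 and 3868, and 1514, 1639 and 2615 in the LPS+ groups (SDs of 2.95, 1.68, 0.06 and 0.37, limma, adjusted p = 0.0167). Mki67, the proliferation marker Ki-67, had 11256, 18266 and 2516 counts under LPS- tlr4f/f and 5500, 4298 and 2163 under LPS- tlr4f/f-lysM-cre (adjusted p = 0.0303 in limma). In the LPS+ groups it was between 17961 and 31641, and between 9477 and 13271. In both genes, replicate 3 of each LPS- group lay below all other libraries of its group and below all LPS+ libraries. Kif23, a kinesin of the midbody, had the smallest mean SD of the list, at 0.41 and 0.62 under LPS- headings.

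Genes of DNA replication followed with smaller SDs. The median of 37 genes was 0.46 and 0.52 under LPS- headings and 0.09 and 0.10 under LPS+ headings. In limma's test 20 of them (54.1%, against 18.8% of all genes) had a larger SD under LPS- headings. Without both LPS- replicates 3, the medians under LPS- headings were 0.12 and 0.23, and the ratio was 1.97 against 5.36 with all libraries, again below that of all genes. Tk1, the thymidine kinase of S phase, had 2767, 3048 and 667 counts under LPS- tlr4f/f and 366, 345 and 56 under LPS- tlr4f/f-lysM-cre (limma, adjusted p = 0.0135). Rfc4, a subunit of the clamp loader, did not vary in this way, with SDs of 0.10 and 0.28 against 0.15 and 0.24. Replicate 3 was the farthest and the lower in both LPS- groups in 19 of the 37 genes.

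The C1q chains showed a different library as the low one. C1qa had 295, 43918 and 7925 counts under LPS- tlr4f/f and 219, 28513 and 26525 under LPS- tlr4f/f-lysM-cre. C1qb had 577, 84705 and 23762 counts, then 439, 55008 and 36043. C1qc had 1642, 70125 and 24468 counts, then 808, 42162 and 30647. Replicate 1 of both LPS- groups was thus far below the others in all 3 genes, which form 1 protein together. Ly86, which encodes MD-1, the partner of the TLR4 homologue RP105, had the same order, with 9, 4126 and 1307 counts and 9, 4176 and 2473 counts (SDs of 4.49 and 4.90, limma, adjusted p = 0.00854).

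These genes varied under LPS+ headings too, and there in replicate 3. C1qa had 7880, 6696 and 2166 counts under LPS+ tlr4f/f and 7404, 6087 and 1930 under LPS+ tlr4f/f-lysM-cre. C1qb had 28553, 24360 and 12347 counts, then 25684, 21335 and 9779. The SDs of C1qa were 3.64 and 4.15 under LPS- headings and 1.25 and 1.14 under LPS+ headings (adjusted p = 0.0231 in limma). The gene was thus among the 4 with the largest SD in both LPS+ groups, and also under LPS- tlr4f/f-lysM-cre.

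MHC class II genes and co-stimulators also varied in all 4 groups. The median SD of 11 genes was 1.20 and 0.73 under LPS- headings and 0.51 and 0.27 under LPS+ headings, and 8, 5, 9 and 5 of them were in the top 10% of the respective group. Of these 11, 2 had a larger SD under LPS- headings in limma's test, 18.2% against 18.8% of all genes. H2-Aa, the alpha chain of I-A, had 466, 1850 and 3891 counts, then 441, 1296 and 1113, then 1567, 1003 and 642, and then 1697, 1184 and 757 (adjusted p = 0.287 by limma). Replicate 1 was the lowest in both LPS- groups, whereas replicate 3 was the lowest in both LPS+ groups. Cd74, the invariant chain, had the same lowest libraries, with 3093 and 3214 counts in replicate 1 under LPS- headings and 6991 and 8985 in replicate 3 under LPS+ headings. Ciita, the transactivator of these genes, had 13, 63 and 942 counts under LPS- tlr4f/f and 30, 93 and 10 under LPS- tlr4f/f-lysM-cre. Its high library was therefore replicate 3 in the first group only.

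**Figure D4:**
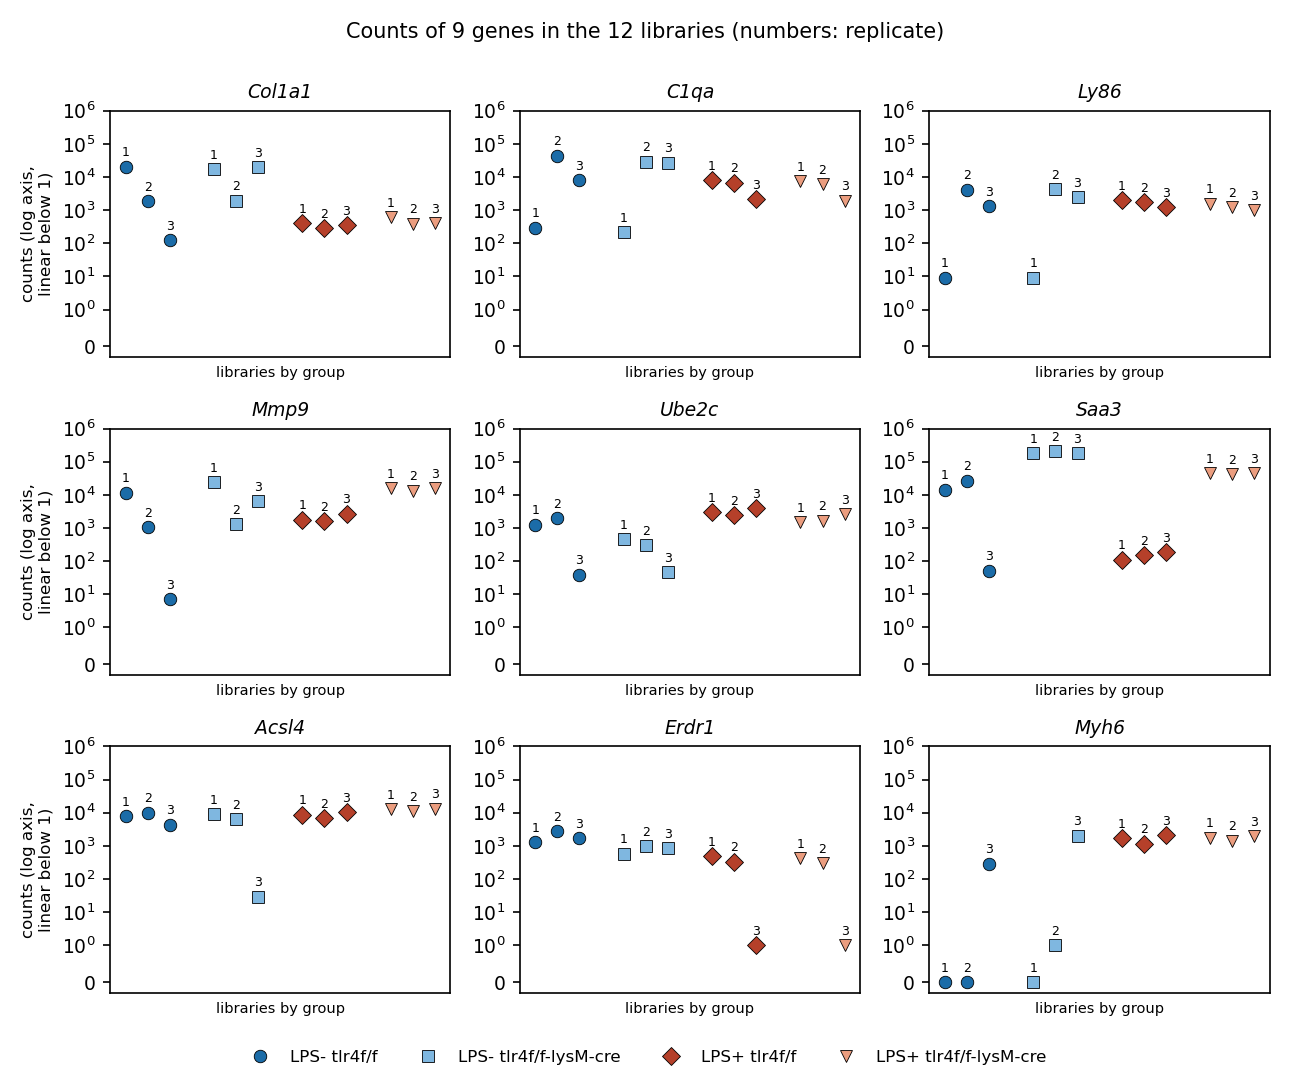
Counts (y axis, log scale) of the genes named in the panel titles in each of the 12 libraries, 1 point for each library, grouped by heading. The points of the groups headed LPS- scatter over up to several orders of magnitude, those of the groups headed LPS+ lie close together except for Erdr1 and C1qa, whose replicate 3 is low.

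Markers of alternative activation also varied strongly under LPS- headings. Over 14 genes the median SD was 1.15 and 0.65 against 0.12 and 0.15. Of these, 10 (71.4%, against 18.8% of all genes) had a larger SD under LPS- headings in limma's test. Chil3, the chitinase-like protein Ym1, had 246, 150 and 1 counts under LPS- tlr4f/f and 157, 119 and 1191 under LPS- tlr4f/f-lysM-cre, against 59 to 102 in the LPS+ libraries (limma, adjusted p = 0.0234). Mrc1, the mannose receptor, had 4358, 30268 and 806 counts, then 1869, 9805 and 9719. The markers did not share 1 order of libraries. Replicate 3 of the second group was the highest for Chil3, and replicate 2 for Mrc1. Tgfb1, the cytokine TGF-beta, varied least in this list, with SDs of 0.28 and 0.21 against 0.05 and 0.0037.

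Inflammatory genes varied mainly in the group headed LPS- tlr4f/f. For 36 NF-kB and TNF targets the median SD was 1.09 there and 0.49 under LPS- tlr4f/f-lysM-cre, against 0.18 and 0.12. Of these, 14 (38.9%, against 18.8% of all genes) had a larger SD under LPS- headings in limma's test. Ccl2, a chemokine for monocytes, had 5031, 16796 and 35 counts under LPS- tlr4f/f and 118462, 71349 and 47933 under LPS- tlr4f/f-lysM-cre (SDs of 4.56, 0.55, 0.27 and 0.07, adjusted p = 0.0286 in limma). Ccl7, a related chemokine with the largest SD of that group, had 1628, 5616 and 1 counts against 59671, 51117 and 50682. Its SD was 5.63 in the first group and 0.0117 in the second, so it did not separate the headings (limma, adjusted p = 0.959). Saa3, an acute-phase protein, had 14393, 26880 and 51 counts under LPS- tlr4f/f and 176390, 203935 and 181755 under LPS- tlr4f/f-lysM-cre. For all 3 genes, replicate 3 headed LPS- tlr4f/f was far below replicates 1 and 2.

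Some cytokines of this list varied in both LPS- groups. Il1a, a cytokine of the interleukin-1 family, had 185, 143 and 9 counts, then 159492, 14363 and 39262, while it had 38, 27 and 44, and 17393, 15418 and 19575, in the LPS+ groups (SDs of 2.14, 1.63, 0.10 and 0.06, limma, adjusted p = 0.0102). Cxcl2, a chemokine for neutrophils, had 888, 410 and 58 counts, then 303788, 24681 and 64626 (limma, adjusted p = 0.0167). Replicate 1 was the highest library of both LPS- groups for both genes. Sod2, a mitochondrial superoxide dismutase, varied least in the list, with SDs of 0.28 and 0.10 under LPS- headings. Without both LPS- replicates 3, the ratio of the list was 3.36, against 5.36 with all libraries.

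Interferon-stimulated genes varied less and less evenly. For 40 such genes the median SD was 0.52, 0.26, 0.18 and 0.07 in the 4 groups, and 4 of 40 had a larger SD under LPS- headings, 10.0% against 18.8% of all genes. The top 10% by SD held 14 of them under LPS- tlr4f/f, 1 under LPS- tlr4f/f-lysM-cre, 13 under LPS+ tlr4f/f and 2 under LPS+ tlr4f/f-lysM-cre. Their share of the top 10% was thus larger in both groups headed tlr4f/f than in both headed tlr4f/f-lysM-cre. If the headings were exchanged, the first 2 groups were those without LPS and the other 2 those with it. This difference in share was not tested. Without both LPS- replicates 3, the ratio of their SDs was 1.70, against 3.19 with all libraries. Isg15, a ubiquitin-like protein, had 7615, 4283 and 1860 counts, then 60867, 55030 and 40051 (SDs of 0.95, 0.25, 0.08 and 0.08, limma, adjusted p = 0.041). Iigp1, an interferon-inducible GTPase, had the largest mean SD, with 206, 265 and 6 counts under LPS- tlr4f/f and 42, 117 and 17 under LPS+ tlr4f/f, against 2020 to 12541 in the other groups. Rtp4, a chaperone of receptors, had SDs of 0.12 and 0.08 under LPS- headings, the smallest of the list.

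Targets of NRF2, the regulator of the oxidative stress response, had large SDs in both LPS- groups alike. The median of 18 genes was 0.59 and 0.63 against 0.10 and 0.08. Of these, 11 (61.1%, against 18.8% of all genes) had a larger SD under LPS- headings in limma's test. Gclm, the modifier subunit of the enzyme that starts glutathione synthesis, had 15073, 4911 and 2985 counts, then 12656, 2271 and 5479, against 3460 to 6685 and 9330 to 12727 in the LPS+ groups (adjusted p = 0.0193 in limma). Slc7a11, the cystine transporter, had 2482, 810 and 721 counts, then 29911, 8633 and 25109. Nqo1, a quinone reductase, had 1271, 283 and 231 counts, then 849, 100 and 203, but also varied under LPS+ headings and did not pass the test (adjusted p = 0.0677 by limma). Replicate 1 was the highest library of both LPS- groups in these 3 genes, as for Col1a1 in the first group. Without the 2 replicates 3, the ratio of the list was 8.20, against 2.48 for all genes.

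Lipid and lysosome genes varied moderately. Of 23 genes of cholesterol synthesis, all had both SDs under LPS- headings above both under LPS+ headings, against 69.1% of all genes, and 12 passed limma's test (52.2%, against 18.8%). Of 36 lysosome genes, 35 had both SDs above and 15 passed (41.7%), with median SDs of 0.34 and 0.32 against 0.09 and 0.06. Atp6v0d2, a subunit of the proton pump that is abundant in osteoclasts, had 1574, 15246 and 3477 counts, then 450, 3318 and 3159, and was between 19048 and 28975 and between 4297 and 5579 in the LPS+ groups (limma, adjusted p = 0.0142). Apoe, an apolipoprotein that macrophages secrete, had SDs of 0.79 and 0.99 against 0.36 and 0.30 and did not pass (limma, adjusted p = 0.109).

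Macrophage markers were present but varied in level. Adgre1, Csf1r, Itgam, Cd68, Cd14 and Spi1 had at least 16889 counts in every library, and Cx3cr1 at least 15. Adgre1, which encodes F4/80, had 136097, 90114 and 36029 counts under LPS- tlr4f/f and 163300, 106189 and 93980 under LPS- tlr4f/f-lysM-cre (SDs of 0.90, 0.30, 0.01 and 0.08, adjusted p = 0.0227 in limma). Csf1r, the receptor of M-CSF, had 101006, 99132 and 155246 counts, then 63513, 44246 and 33375. Replicate 3 headed LPS- tlr4f/f was thus the lowest of its group for Adgre1 and the highest for Csf1r. Cx3cr1, the receptor of fractalkine, had the largest SDs of the list, with 9302, 496 and 19802 counts, then 509, 103 and 15, against 1197 to 2364 and 3498 to 6810 (limma, adjusted p = 0.0139). Spi1, which encodes the transcription factor PU.1, had SDs of only 0.12 and 0.14 under LPS- headings.

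Markers of neutrophils and osteoclasts also spread under LPS- headings. The summed 16 neutrophil markers had 257, 75.8 and 30.3 CPM under LPS- tlr4f/f and 788, 394 and 765 CPM under LPS- tlr4f/f-lysM-cre, against ranges of 1.2-fold and 1.1-fold in the LPS+ groups. Mmp9, described above, and Csf3r together made up most of this sum in every LPS- library, so it mainly follows these genes. Csf3r had 297, 1720 and 1394 counts, then 2707, 10336 and 10376. S100a8, a calcium-binding protein of neutrophils and monocytes, had 521, 182 and 25 counts, then 856, 285 and 4028. Ly6g, the defining marker of mouse neutrophils, had at most 1 count in every library. Of the 16 markers, only 5 were measured, all in the top 10% of both LPS- groups. The 8 measured osteoclast markers had median SDs of 1.63 and 0.97 against 0.17 and 0.16. Without both LPS- replicates 3, the ratio was 4.73 against 7.83 for osteoclast markers, and 5.70 against 8.82 for neutrophil markers. Car2, the carbonic anhydrase that acidifies bone, was listed here with the erythroid markers and not with those of osteoclasts. It had 68, 513 and 40 counts, then 262, 1219 and 930, with replicate 2 the highest of both LPS- groups.

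Of the remaining marker lists, at most 3 genes were measured in each. Their summed CPM ranged from 1.5-fold to 2.0-fold within the LPS- groups for erythroid cells, 1.9-fold to 3.9-fold for B lymphocytes, 4.4-fold to 5.1-fold for T and NK lymphocytes, and 4.6-fold to 8.0-fold for mast cells and basophils. Within the LPS+ groups the same ranges were at most 1.4-fold. Dendritic cell markers ranged 2.2-fold and 1.2-fold, and megakaryocyte markers 2.7-fold and 2.9-fold. Without both LPS- replicates 3, the ratio of SDs was 19.0 for dendritic cells and 1.90 for megakaryocytes, against 11.3 and 6.26 with all libraries. The part of any of these cells in the spread was not tested.

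Core functions had small or moderate SDs, and several lay above the typical gene in an LPS- group. The median SD of 40 ribosomal proteins was 0.14 and 0.36 under LPS- headings, and 0.09 and 0.04 under LPS+ headings, and 6 passed limma's test (15.0%, against 18.8% of all genes). The second value was above the 0.295 of all genes in that group. Rpl30 had 10977, 11897 and 9914 counts, then 8549, 6054 and 5369, with SDs of 0.02 and 0.23. No ribosomal, respiratory, proteasome, spliceosome, translation or TLR4 pathway gene was in the top 10% of SD in any of the 4 groups. The ribosomal proteins under LPS- tlr4f/f-lysM-cre had mean deviations of 0.31, 0.09 and -0.41 in replicates 1, 2 and 3. Without both replicates 3, their median SDs were 0.04 and 0.19 and their ratio to the LPS+ groups was 1.70, against 3.81 with all libraries. For the respiratory chain the ratio was 1.69 against 3.21, for heat shock genes 2.45 against 4.13, and for genes of the unfolded protein response 2.41 against 3.91. With all libraries, proteasome genes had median SDs of 0.27 and 0.17 under LPS- headings against 0.05 and 0.03, and 11 of 31 passed limma's test (35.5%). Heat shock genes had 0.24 and 0.35 under LPS- headings, and 8 of 18 passed (44.4%). Genes of the unfolded protein response had 0.39 and 0.30, and 5 of 28 passed (17.9%). All genes had 0.248 and 0.295 in these groups.

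The TLR4 pathway itself varied less than the typical gene in each of the 4 groups. The median SD of 23 genes was 0.15 and 0.27 under LPS- headings against 0.08 and 0.06, and 4 of 23, 17.4%, had a larger SD under LPS- headings, near the 18.8% of all genes. Tbk1, the kinase on the TRIF arm, had 5192, 5467 and 4926 counts, then 9512, 9026 and 8947. Myd88, the adaptor of the other arm, had 5024, 5825 and 3796 counts, then 14661, 13612 and 11440. Tlr4 had SDs of 0.48 and 0.17 against 0.18 and 0.09 and did not pass (limma, adjusted p = 0.262). Ticam2, the adaptor that bridges TLR4 to TRIF, had the largest mean SD of the list, at 0.38 and 0.69.

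Reference genes were not free of the spread. Actb, which encodes beta-actin, had 394576, 349129 and 208366 counts, then 443863, 425592 and 337649 (SDs of 0.40, 0.17, 0.08 and 0.08, limma, adjusted p = 0.11). Gapdh, a glycolytic enzyme, had SDs of 0.06 and 0.47 against 0.10 and 0.08. Of 15 reference genes, 4 (26.7%, against 18.8% of all genes) had a larger SD under LPS- headings in limma's test. Of the 4 sex-linked genes measured, none passed limma's adjusted threshold, and the Y-linked Uty had SDs of 0.0094 and 0.35 against 0.12 and 0.12.

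In a few genes, 1 library alone differed. Among 9531 genes with a mean of at least 100 counts in every group, a library was counted when it lay at least 3 from both others in log2 CPM while these lay within 1 of each other. Replicate 3 headed LPS- tlr4f/f was below the others in this way in 30 genes, among them Saa3, Pf4, Cfb, Il1b, Mmp13, Ube2c, Hmmr and Ccnb2. Replicate 1 headed LPS- tlr4f/f-lysM-cre was below in 15 genes, among them Ly86, the 3 C1q chains, Gdf3, Cd22 and Entpd1. Each of the other LPS- libraries was below or above in at most 7 genes. Acsl4, an enzyme that activates arachidonic acid, had 9181, 6289 and 29 counts under LPS- tlr4f/f-lysM-cre and between 4381 and 13042 in all other groups (SD of 4.54, limma, adjusted p = 0.0128). Only its replicate 3 was low.

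Under LPS+ headings, replicate 3 stood apart in this way for 2 genes. Erdr1, a gene of the pseudoautosomal region, had 480, 328 and 1 counts under LPS+ tlr4f/f and 419, 296 and 1 under LPS+ tlr4f/f-lysM-cre. Under LPS- headings it had between 585 and 2748 counts in every library. Its SDs were 4.18 and 4.09 under LPS+ headings and 0.50 and 0.51 under LPS- headings (limma, adjusted p = 0.0114), and it was also the gene that passed after centring (limma, adjusted p = 0.00998). G530011O06Rik, the other gene, had 217, 224 and 22 counts under LPS+ tlr4f/f. The genes Gm16867, Gm21986 and LOC101056014 complete the 4 with a larger SD under LPS+ headings. LOC101056014 had 32865, 15826 and 20635 counts, then 12743, 25704 and 39938 in the LPS+ groups, and between 10257 and 21479 in the libraries headed LPS- (limma, adjusted p = 0.0322).

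Libraries with the same replicate number were compared within a heading. In both LPS- groups, the same replicate was the farthest and in the same direction in 3253 of 11787 genes (27.6%), of which 1612 had replicate 3. The groups headed LPS+ shared this in 2831 genes (24.0%), and pairs of groups with different LPS headings in 16.4% to 19.3%. The top 10% by SD had 601 genes in common between the LPS- groups (51.0% of each set), and 562 between the LPS+ groups (47.7%). Pairs of groups with different LPS headings had between 35.5% and 38.8% in common. Of the 601 genes, 235 had the same farthest replicate in the same direction in both LPS- groups, 106 with replicate 1, 26 with replicate 2 and 103 with replicate 3.

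**Figure D5:**
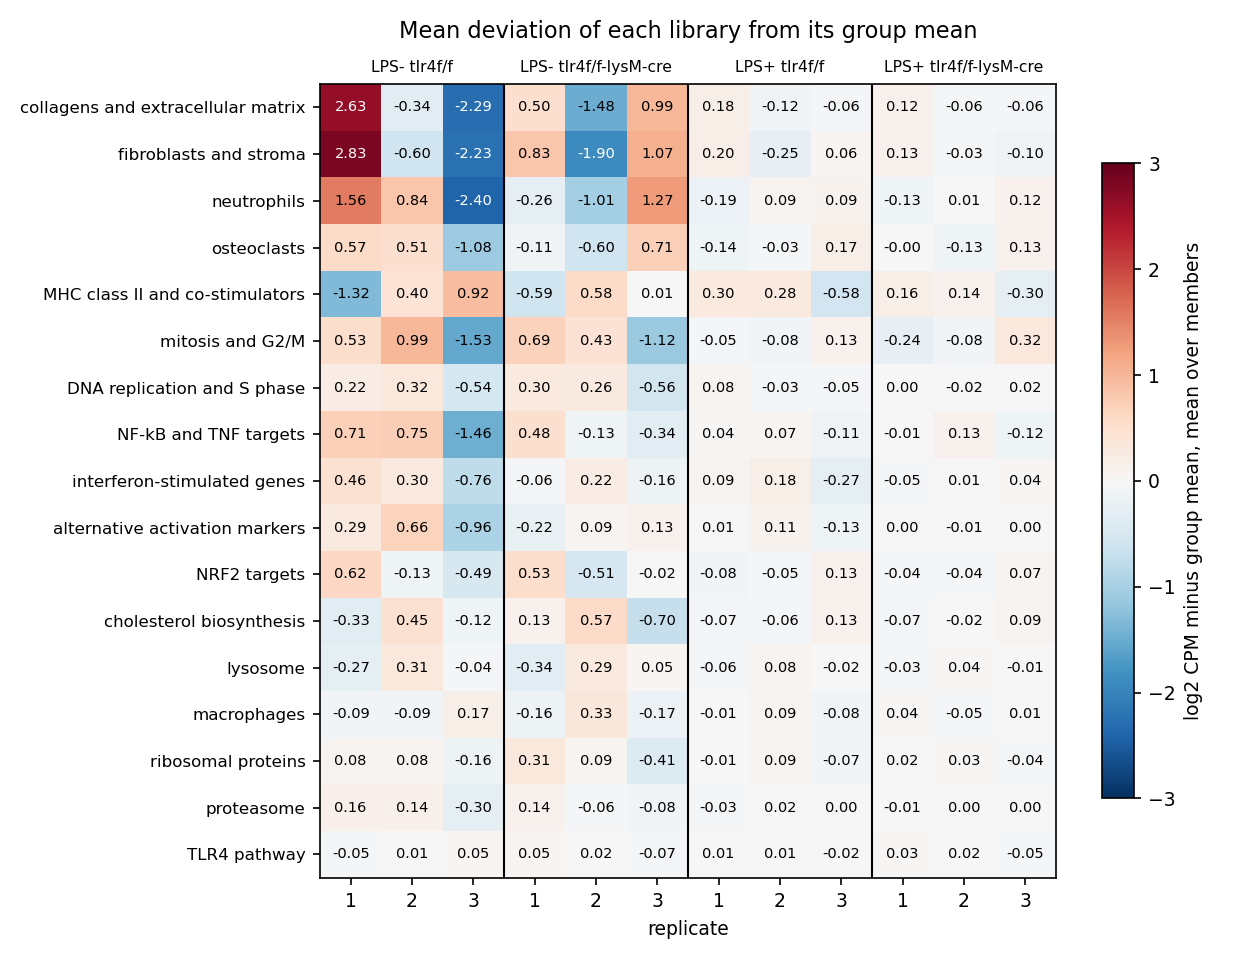
Mean deviation in log2 CPM of the measured members of each gene list from their group mean (colour), with 1 column for each of the 12 libraries and 1 row for each list. The columns headed LPS- hold the strong colours, among them mitosis at -1.53 and -1.12 in both replicates 3 and collagens at 2.63 and -2.29 in replicates 1 and 3 headed LPS- tlr4f/f, while the columns headed LPS+ are pale.

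The lists differed in which replicate they shared. Mitosis was low in replicate 3 of both LPS- groups, as given above, and so were 31 of 40 ribosomal proteins. MHC class II genes had mean deviations of -1.32 and -0.59 in replicate 1 of the LPS- groups, and of -0.58 and -0.30 in replicate 3 of the LPS+ groups. Collagens deviated by 2.63, -0.34 and -2.29 in replicates 1, 2 and 3 headed LPS- tlr4f/f and by 0.50, -1.48 and 0.99 under LPS- tlr4f/f-lysM-cre, so that replicate 3 was low in the first and high in the second. Interferon-stimulated genes deviated by 0.46, 0.30 and -0.76, then by -0.06, 0.22 and -0.16. The deviations between the LPS- replicates thus followed different libraries in different functions.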

How the data were processed

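RNA of BMDMs was sequenced in paired-end reads on a HiSeq 3000. The authors trimmed the reads (Trimmomatic 0.36, per the submitters' processing notes), used HISAT2 for alignment to mm10 and HTSeq for counting. The labels name both rRNA removal and poly(A) selection. The values deposited by the authors are unnormalized whole-number counts of 115140 transcripts. Transcripts of a gene share reads, so the transcript with the highest total was taken, which left 43131 genes. Reads had no molecular identifiers, so counting errors are a lower limit on sampling error.

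TMM factors and log2 CPM (prior count of 2) were computed with edgeR 4.0.16 in R 4.3.3, and SDs over the 3 libraries of a group for genes with a mean of at least 20 counts in every group. The log2 SDs of 2 groups were compared with those of the other 2 by limma 3.58.1 (trend, robust, Benjamini-Hochberg, 0.05), with and without centring on the median gene. Their p-values take the 2 groups of a heading as replicates. They do not allow for the libraries that all genes share, nor for the correlation between same-numbered libraries. An exact permutation test over the 4 groups was used for the medians. The limma test was checked on simulated data with independent libraries and a larger SD under LPS- headings in a small set of genes only. Those data held no shift of most genes and no correlated libraries, so the check does not cover these. Figures were drawn with matplotlib 3.10.9 in Python 3.11.15.

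Replicate numbers pair the samples within a heading. The deviations of same-numbered libraries correlated across genes at 0.55, 0.35 and 0.11 between the LPS- groups and at 0.22, 0.25 and 0.44 between the LPS+ groups, in the data alone and not by any label. Across headings the correlations were between -0.12 and 0.24, and those numbers were not treated as pairs.

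Members and lists were chosen with earlier results of these data known. By rule, the genes named are Tlr4, Lyz2, the sex-linked genes, Actb, Gapdh, the 4 with the largest SD in each group and the 3 with the largest and smallest ratio of SDs among passing genes (mean of at least 100 counts in every group), and the most and least variable member of each list. Some of these genes are not reported here. Other genes named, the set of 19 genes with few counts in 4 libraries, the criterion for 1 library standing apart, the exchange of headings and the fit without both LPS- replicates 3 were chosen after values were seen. No mitochondrially encoded gene is in the table.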

Additional observations from a re-analysis of the deposited data

How the results depend on the processing

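The ratio of median SDs kept its direction under every alternative but the exchange of headings. It was 3.02 as reported, 2.74 for genes with a mean of at least 1 count, 3.66 with the counting variance subtracted, 3.66 and 3.80 from the dispersions of edgeR and DESeq2 1.42.0, 2.48 without both LPS- replicates 3, 0.871 with the headings exchanged, and between 2.62 and 3.32 with 1 library left out. With the replicate number as a block within each heading, which pairs the libraries, the residual SDs were 0.228 and 0.0793, a ratio of 2.87. The block was run for this ratio only. Other size factors, a minimum of 100 counts, a prior count of 0.5 and the sum over transcripts moved it by less than the spread between the groups. Over all lists of functions, 208 of 208 ratios under these settings and 312 of 312 with a library left out were above 1.

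The counts of genes depended on the setting. For a larger SD under LPS- headings, limma's count of 2220 was 965 with a mean of at least 1 count, 746 without both LPS- replicates 3, 0 with the headings exchanged, 5814 with absolute deviations in place of SDs, 3401 with a test of the variance ratio, 13 at an adjusted p below 0.01, and between 0 and 2200 with 1 library left out. For a larger SD under LPS+ headings, the count of 4 was 1, 2, 0 and 17 under the first 4 of these, 0 at an adjusted p below 0.01, and between 0 and 6 with a library left out. Relative to the median gene, the count above it was 0, and 1 with a prior count of 0.5 or with the counting variance subtracted, and 0 to 0 with a library left out. The count below it was 1, and 0 with the sum over transcripts, without both LPS- replicates 3 or with the headings exchanged, and between 0 and 1 with a library left out. The count of genes with both LPS- SDs above both LPS+ SDs was 8149 as reported, between 6546 and 7925 with a library left out, and 723 with the headings exchanged. Which genes passed under each setting was not compared, and each left-out library leaves a group of 2, whose SD has fewer degrees of freedom. The depth limits genes under 100 counts, where counting error is a larger share of the SD.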
